A study of Mus musculus with 6 samples.

Results

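The 3 troponin genes Tnni1, Tnnt1 and Tnni3 were taken from the authors' deposited table by their gene symbols, 3 of 12615 rows. They were selected on the group levels and calls of this same comparison, which were already known. The FPKM values and q-values of these genes are therefore given as a description and support nothing by themselves. The first group consisted of 3 samples of mouse Ba/F3 cells that expressed hCALR-del52, human calreticulin with the type 1 mutation found in myeloproliferative neoplasms. The other group consisted of 3 samples of Ba/F3 cells that expressed unmutated hCALR. Both groups carried the retroviral vector pMSCV-IRES-GFP, grew with interleukin-3 (IL-3) at 1 ng/ml, and kept their own mouse genes. Ba/F3 is an IL-3-dependent pro-B cell line, and the labels do not say how many clones or transductions stand behind a group, so that construct and transduced line cannot be told apart.

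Troponin is the calcium switch of striated muscle. Troponin C (TnC) binds calcium, troponin I (TnI) holds back the contact of actin with myosin, and troponin T (TnT) anchors the complex to tropomyosin on the thin filament. Slow skeletal muscle, fast skeletal muscle and heart use different genes for these subunits, and blood cells are not known for a troponin-regulated contractile apparatus. Tnni1 encodes slow skeletal TnI, Tnnt1 slow skeletal TnT and Tnni3 cardiac TnI. Tnni1 and Tnnt1 are thus partners in the same fibre type, while Tnni1 gives way to Tnni3 in the developing heart.

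The 100 bases before a RefSeq start of each gene (GRCm38.p6) are shown because Tnni1 and Tnnt1 were both higher in hCALR-del52 cells, whereas the row of Tnni3, next to Tnnt1, was lower. RefSeq gives 2 starts for Tnni1, 90 bases apart, and the upstream one is used for the printed window. The windows are chr1:135799321-135799420 on the plus strand for Tnni1, chr7:4515976-4516075 on the minus strand for Tnnt1 and chr7:4522529-4522628 on the minus strand for Tnni3. Capitals mark matches, on either strand, to CANNTG (the E-box, read by myogenic and other basic helix-loop-helix factors) or to TATAAA (the TATA box).
Tnni1: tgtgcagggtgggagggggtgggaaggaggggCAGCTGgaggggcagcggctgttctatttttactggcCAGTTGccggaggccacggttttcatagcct
Tnnt1: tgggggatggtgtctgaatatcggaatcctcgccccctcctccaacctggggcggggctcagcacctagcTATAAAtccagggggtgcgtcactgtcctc
Tnni3: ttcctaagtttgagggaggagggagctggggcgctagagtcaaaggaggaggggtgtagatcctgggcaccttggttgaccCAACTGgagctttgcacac
The printed Tnni1 window held 2 E-boxes, the Tnni3 window 1 and the Tnnt1 window 0, and the Tnnt1 window alone of the 3 held TATAAA. The window before the other Tnni1 start (chr1:135799411-135799510) held 0 E-boxes and no other motif searched, so that the count for Tnni1 depends on the start taken. Among 32851 RefSeq promoter windows of the same length, 34.4% held CANNTG and 5.56% held TATAAA. On either strand, 3 other sequences were searched and found in none of the 3 windows. One was AGATAA, a core read by erythroid zinc finger factors, which 3.59% of all windows held. Another was TTCNNNGAA, read by STAT factors, which 2.55% held. The last was CATTCC, read by TEAD factors in muscle genes, which 4.71% held. None of these motifs overlapped another in these windows. These matches describe letters and show no binding.

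Tnni1 (ENSMUSG00000026418, chromosome 1, 135783065 to 135810989, mm10, plus strand, protein coding) stood at 90.7 FPKM in hCALR-del52 cells and at 0.876 FPKM in hCALR cells. FPKM counts sequenced fragments relative to transcript length and to all mapped fragments of a library, and the table gives it as 1 value per group over the 3 samples. No value per sample and no SD could therefore be given, and whether samples overlap between groups cannot be seen. The ratio of both group values was 104-fold, and the log2 ratio after adding 1 FPKM to each was 5.61. In hCALR-del52 cells the level exceeded that of 90.7% of all rows. In hCALR cells it exceeded that of 1.22% of rows. The larger group value was at least 1.01 FPKM in every row, so that Tnni1 has a row through its level in hCALR-del52 cells, and genes as low in both groups are not among the rows it is ranked with. The fold rests on a value near 0 in hCALR cells. Because these are bulk samples, more cells with Tnni1 RNA and more Tnni1 RNA per cell cannot be told apart.

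Tnnt1 (ENSMUSG00000064179, chromosome 7, 4504570 to 4516382, minus strand, protein coding), the TnT partner of slow skeletal TnI, stood at 7.29 FPKM in hCALR-del52 cells and at 2.74 FPKM in hCALR cells. This was a 2.66-fold difference, with a log2 ratio of 1.15. Its level passed that of 32.8% of rows in hCALR-del52 cells and that of 16.5% in hCALR cells, so it remained among the less abundant RNAs in both. Slow TnI and slow TnT RNA were far from equal amounts: per transcript length, Tnni1 was at 12.4 times the level of Tnnt1 in hCALR-del52 cells and at 0.319 times in hCALR cells.

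The row of Tnni3 went the other way, with 5.98 FPKM in hCALR-del52 cells and 15.6 FPKM in hCALR cells. Its log2 ratio was -1.25, and the level in hCALR cells was 2.61 times that in hCALR-del52 cells. This row (chromosome 7, 4518305 to 4532453, minus strand) carries 2 identifiers, ENSMUSG00000035458 of Tnni3 and ENSMUSG00000055809 of Dnaaf3, a gene for an assembly factor of the dynein arms of cilia. In GENCODE M21, Tnni3 spans 4518305 to 4524229 and Dnaaf3 spans 4522933 to 4532453, both on the minus strand. Their spans share 1297 bases, and their exons share 86 bases, 4.17% of the exonic bases of Tnni3. The deposited locus runs from the start of Tnni3 to the end of Dnaaf3. How much of the value belongs to cardiac TnI and how much to Dnaaf3 cannot be read from the table, so that 15.6 FPKM is no measure of Tnni3 alone. An antisense gene inside Dnaaf3, Gm15873, has a row of its own at the same locus, with 1.15 FPKM in hCALR-del52 cells and 1.30 FPKM in hCALR cells. Its exons share 281 bases with those of Dnaaf3, and the labels do not say that strand was used in counting.

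**Figure D1:**
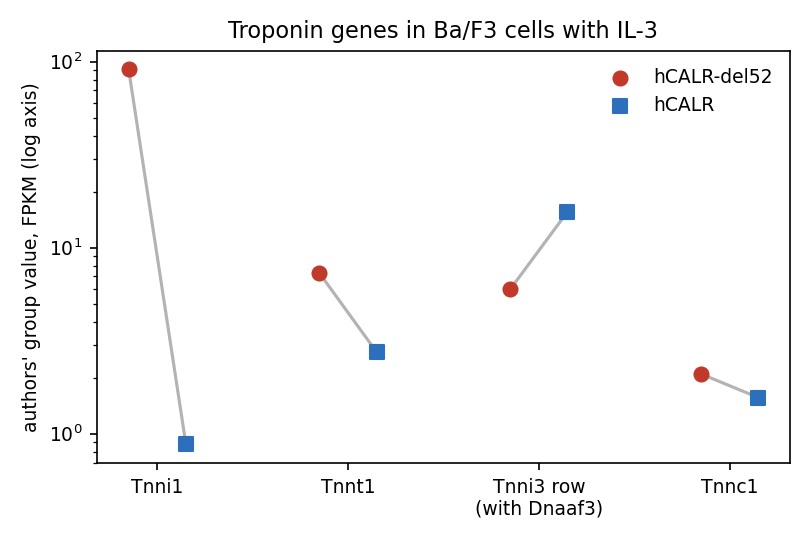
Authors' group values in FPKM on a log axis for Tnni1, Tnnt1, the Tnni3 row and Tnnc1, with hCALR-del52 as circles and hCALR as squares. Each point is 1 value over 3 samples without an error: Tnni1 and Tnnt1 are higher in hCALR-del52 cells (90.7 against 0.876 and 7.29 against 2.74 FPKM), the Tnni3 row is lower (5.98 against 15.6 FPKM), and Tnnc1 lies close to equality.

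In the authors' deposited table Tnni1, Tnnt1 and the row shared by Tnni3 and Dnaaf3 had a q under 0.05 in the Cuffdiff comparison of hCALR-del52 with hCALR. They were among 232 of 12615 rows, or 1.84%. Of these rows, 110 (0.872% of all) were called higher and 122 (0.967% of all) lower. Nothing is read from this share, since the same values were in view when the genes were picked. For Tnni1 the authors' deposited table gives a log2 fold change of 6.69, p = 5.0e-05 and q = 0.00161, the smallest q in the table, which 115 rows share. For Tnnt1 the authors' deposited table gives a log2 fold change of 1.41, p = 0.00055 and q = 0.0131. The values of the Tnni3 row in the authors' deposited table are a log2 fold change of -1.38, p = 0.00175 and q = 0.0341, while the last called row has q = 0.0494 and the next row q = 0.0509. When Benjamini-Hochberg adjustment was repeated over the deposited p-values of all rows, 172 rows (1.36%) passed. Tnni1 then had an adjusted p of 0.00548 and Tnnt1 of 0.0411, while the Tnni3 row, at 0.103, was no longer called. This adjustment covered only the rows left after low expressed and strongly variable genes had been taken out. Whether the deposited q covered those genes too is not stated, so that the adjusted p and the deposited q may rest on different sets. Where the samples of a group came from is not given in the labels. These p-values therefore set the difference between groups against a variation between samples that may be technical.

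The sizes of the differences were unlike among the 3 genes. Only 2 rows in the table had a higher log2 ratio than Tnni1, and the nearer of them was the adult beta-globin gene Hbb-b1, at 422 FPKM in hCALR-del52 cells and 4.33 FPKM in hCALR cells. Just under Tnni1 by log2 ratio stood a row of the microRNA gene Mir130b, at 38.6 FPKM in hCALR-del52 cells and listed at 0 in hCALR cells, which was not called (q = 0.863 in the authors' deposited table). Above Tnnt1 there were 103 rows, and below the Tnni3 row 122 rows. The median log2 ratio over all rows was -0.01, and 90.2% of rows lay within 0.5 of 0, so that Tnni1, Tnnt1 and the Tnni3 row lay outside the bulk of the table. By log2 ratio the neighbours of Tnnt1 were Selp, the P-selectin gene, at 1.15, and a row without a gene, also at 1.15. The Tnni3 row stood between Serpina3g, a serine protease inhibitor gene, at -1.24 and Clnk, an adaptor of immune receptor signalling, at -1.25.

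**Figure D2:**
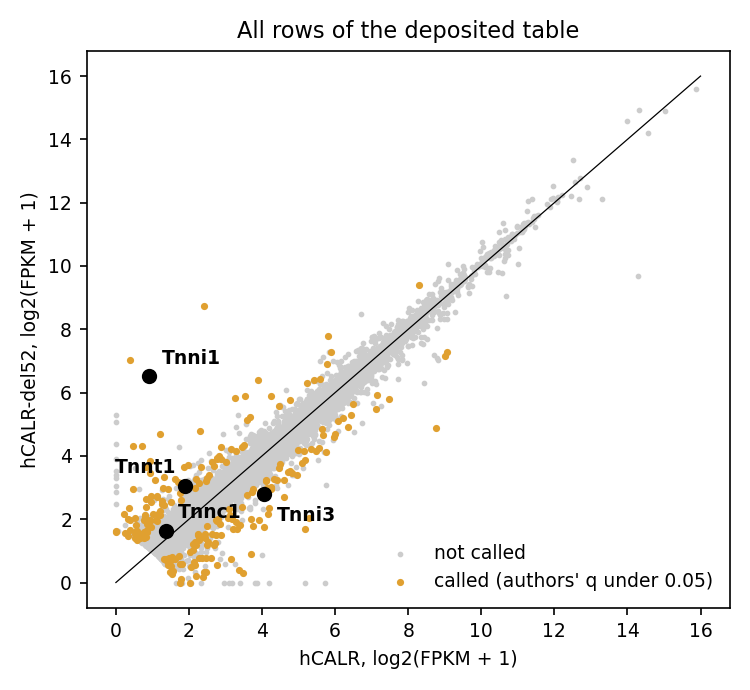
All 12615 rows by log2(FPKM + 1) in hCALR cells (horizontal) and hCALR-del52 cells (vertical), with called rows in orange, the troponin genes in black and equal levels on the diagonal. Tnni1 stands far above the diagonal, Tnnt1 above it at low levels, the Tnni3 row (with Dnaaf3) below it and Tnnc1 beside it.

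By the levels in both groups, compared as the distance on the log2(FPKM + 1) scale over the 2 group values, few rows came close to Tnni1. Among the 3 nearest were Cd3g, which encodes a CD3 subunit of T cells, at a distance of 1.84, and the embryonic globin gene Hbb-bh1, at 2.22. Cd3g stood at 25.1 FPKM in hCALR-del52 cells and 1.29 FPKM in hCALR cells. Tnnt1 lay in a dense range, and its nearest rows were Siglec5 at a distance of 0.14, Slc41a3, a magnesium transporter gene, at 0.16 and M1ap at 0.21. Of these 3 only Slc41a3 was called, with 7.83 FPKM in hCALR-del52 cells and 2.41 FPKM in hCALR cells. The rows nearest to the Tnni3 row were St6gal1, a sialyltransferase gene, at 0.17, S100a9, a calprotectin subunit gene of granulocytes, at 0.20 and Clnk at 0.20, and all 3 were called lower. With 2 group values, likeness of this kind says no more than that the levels are near each other.

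Taken as a sum, Tnni1 and the Tnni3 row reached 96.7 FPKM in hCALR-del52 cells and 16.5 FPKM in hCALR cells. The share of Tnni1 in this sum was 93.8% in hCALR-del52 cells and 5.32% in hCALR cells, and reads of Dnaaf3 count in it. Tnni1 was at 15.2 times the level of the Tnni3 row in hCALR-del52 cells, while in hCALR cells the Tnni3 row was at 17.8 times the level of Tnni1. From high to low, the order of the 3 rows was Tnni1, Tnnt1, Tnni3 in hCALR-del52 cells and Tnni3, Tnnt1, Tnni1 in hCALR cells. In hCALR-del52 cells Tnnt1 and the Tnni3 row were near each other, with the Tnni3 row at 0.820 times the level of Tnnt1, against 5.69 times in hCALR cells. No spread over samples is at hand to say whether neighbours in these orders differ.

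Sequence shared between genes was looked at because TnI genes are paralogs. Of 3681 different stretches of 50 bases in the GENCODE M21 transcripts of Tnni1, 0.380% (14 stretches) also occurred in transcripts of other genes. They were spread over 442 genes, and the only troponin gene among these was Tnnt2, with 2 stretches. For Tnnt1 the share was 1.16% of 2418 stretches, with no troponin gene among the others. For Tnni3 it was 1.69% of 2189 stretches, all of them shared with Dnaaf3. Stretches of this length in Tnni1 thus did not occur in Tnni3 or the reverse.

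Tnni1 has 9 transcripts in GENCODE M21, and 6 of them start within 1 kb of the upstream RefSeq start, whose preceding bases are printed above. The locus of the deposited row begins 16.4 kb further upstream, where 1 transcript starts. The table holds 1 value for the gene, so that the start used in hCALR-del52 cells is not shown by it.

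Of 8 mouse troponin genes, the remaining 5 are Tnnc1, Tnnc2, Tnni2, Tnnt2 and Tnnt3, and of these only Tnnc1 was analysed. Tnnc1 encodes the TnC of heart and slow skeletal muscle, the subunit that would join Tnni1 and Tnnt1 in a slow troponin complex. It stood at 2.096 FPKM in hCALR-del52 cells and 1.56 FPKM in hCALR cells, with a log2 ratio of 0.27 and q = 1.00 in the authors' deposited table, and was not called. Tnni1 in hCALR-del52 cells was thus the one slow troponin RNA above the median level of all rows, which was 14.5 FPKM there. The row of Tnnc1 has a wide locus (chromosome 14, 31170930 to 31230399), and Tnnc1 lies inside Nisch, a gene on the opposite strand. Their exons share 0 bases. The labels do not say that strand was used in counting, and whether reads from introns of Nisch enter the Tnnc1 value was not tested. The table leaves out genes with low expression, so a gene without a row has no level here. Tnnt2, the cardiac TnT gene, lies 25364 bases downstream of Tnni1 and has no row, and neither has Lad1 between them.

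Rows within 250 kb of the troponin genes were compared with them. Around Tnni1 there were 4 rows, none called, with log2 ratios from 0.12 to 0.64. The highest of them was Phlda3, a p53 target gene that ends 13.9 kb upstream of Tnni1, at 19.98 FPKM in hCALR-del52 cells and 12.4 FPKM in hCALR cells (q = 0.269 in the authors' deposited table). Its unadjusted p in the authors' Cuffdiff test was 0.0271. It was the 1 row of these 4 under 0.05, against 4.90% of all rows. Csrp1 and Nav1, which share a locus upstream, had log2 ratios of 0.23 and 0.31, and Tmem9, 197 kb downstream, had 0.12. The row of Nav1 also carries the identifier of Gm38399. All 4 rows had a ratio above 0, and Tnni1 exceeded each by far. Around Tnnt1 and Tnni3 there were 7 other rows, none called, with log2 ratios from -0.30 to 0.34. Ppp1r12c, which ends 2.89 kb from Tnnt1, was at 78.9 FPKM in hCALR-del52 cells and 81.0 FPKM in hCALR cells. The annotated ends of Tnnt1 and Tnni3 lie 1922 bases apart. Tnnt1 and the Tnni3 row were therefore the 2 called rows of this stretch, in opposite directions.

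**Figure D3:**
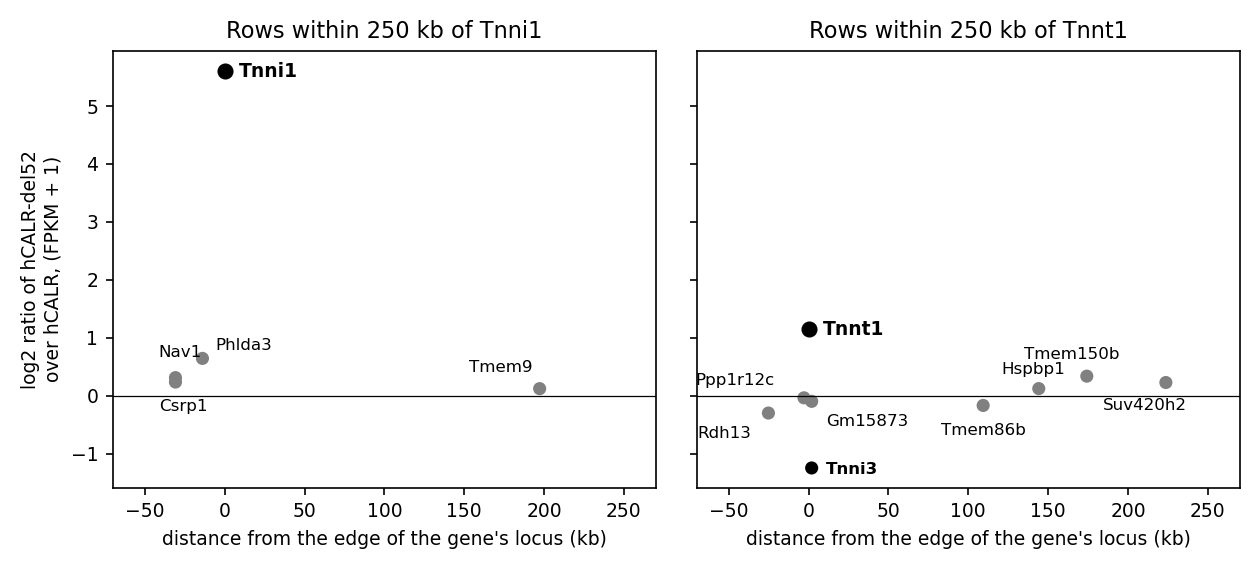
Log2 ratio of hCALR-del52 over hCALR, on (FPKM + 1), for rows within 250 kb of Tnni1 (left) and of Tnnt1 (right), by distance in kb from the edge of that gene's locus, with troponin genes in black and other rows in grey. The neighbours of Tnni1 lie between 0.12 and 0.64 and those of Tnnt1, apart from the Tnni3 row, between -0.30 and 0.34.

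Genes that work with troponin in muscle were counted next, in 9 lists of the contractile apparatus and its regulators with 131 genes. A row was found for 42 of them. By the authors' q, 0 of 42 were called, 0 higher and 0 lower, against 1.84% of all rows. At an unadjusted p under 0.05 in the authors' Cuffdiff test, 1 of 42 passed, against 618 of all rows (4.90%), and after Benjamini-Hochberg adjustment over all rows 0 of 42 did. The median log2 ratio was -0.03, beside -0.01 over all rows, with 19 genes above 0 and 23 below. None of the 42 reached the log2 ratio of Tnnt1, the highest being 0.81 for Myh10, a non-muscle myosin heavy chain gene at 2.66 FPKM in hCALR-del52 cells and 1.09 FPKM in hCALR cells, which was the gene with the unadjusted p of 0.0221.

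Tropomyosin, the binding partner of TnT, was present without a called difference. Of 14 genes of tropomyosins, tropomodulins and nebulins 7 had a row, with log2 ratios from -0.65 to 0.09. The row of Tmod4 among them also carries the identifier of Vps72, so that its value is no measure of Tmod4 alone. Tpm3, which encodes slow muscle and cytoskeletal tropomyosins, was at 185 FPKM in hCALR-del52 cells and 174 FPKM in hCALR cells, well above Tnnt1 in both. Of 6 actins 3 had a row, and the cytoplasmic actin gene Actb was at 1024 FPKM in hCALR-del52 cells and 1043 FPKM in hCALR cells. Of 24 striated thick filament genes 2 had a row, Mylpf at 17.2 FPKM in hCALR-del52 cells and 18.4 FPKM in hCALR cells, and Myh7b at 5.28 FPKM in hCALR-del52 cells and 5.46 FPKM in hCALR cells. The defining skeletal and cardiac myosin heavy chain genes Myh1, Myh2, Myh4, Myh6 and Myh7 were not analysed, as none has a row. Tnni1 RNA in hCALR-del52 cells was seen beside cytoskeletal tropomyosins and actins, with few sarcomere genes measured.

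Of 33 muscle transcription factors 11 had a row, 0 called, with log2 ratios from -0.48 to 0.30. Srf, a regulator of actin and muscle genes, was at 25.996 FPKM in hCALR-del52 cells and 36.7 FPKM in hCALR cells. The myogenic factors Myod1, Myog, Myf5 and Myf6 have no row and were not analysed. The remaining lists were alike in having 0 called genes. They covered 6 of 8 non-muscle myosin II genes, 6 of 20 Z-disc genes, 3 of 18 genes of excitation, calcium release and muscle energy, and 3 of 3 calmodulins, and their medians were -0.13, -0.03, 0.02 and 0.06. The row of Csrp3 among the Z-disc genes also carries the identifier of E2f8, so that its value is no measure of Csrp3 alone.

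**Figure D4:**
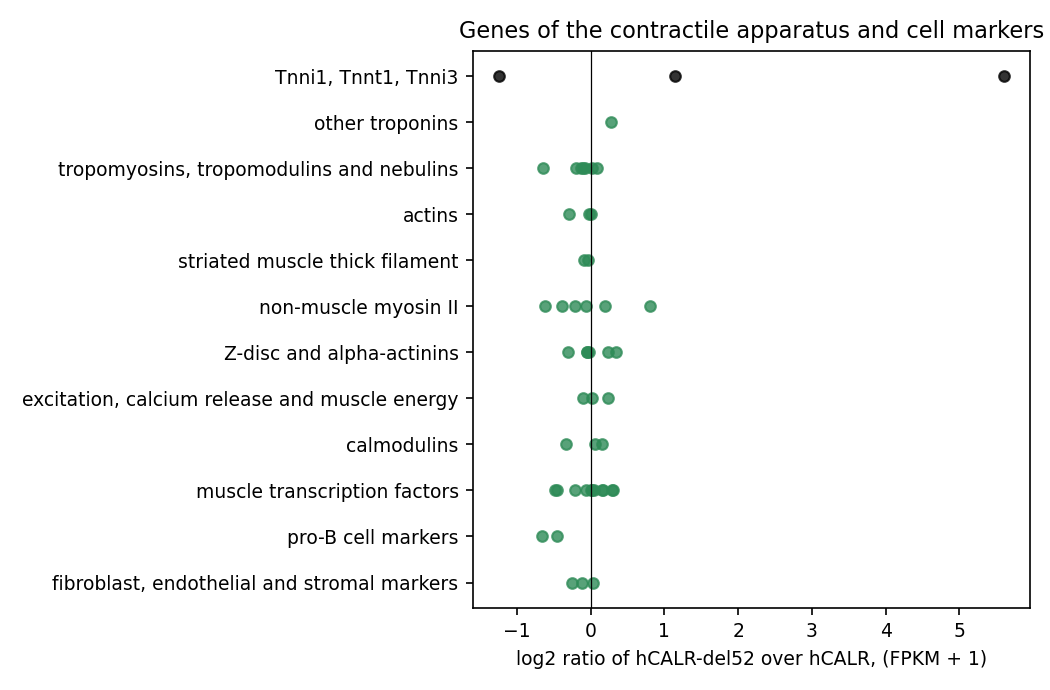
Log2 ratio of hCALR-del52 over hCALR, on (FPKM + 1), with 1 point per gene, for Tnni1, Tnnt1 and Tnni3 (top, black) and for each list (green). The 42 genes of the 9 contractile lists lie between -0.65 and 0.81, while Tnni1 lies at 5.61, Tnnt1 at 1.15 and the Tnni3 row (with Dnaaf3) at -1.25.

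The label pro-B cell was checked with 18 markers, of which 2 had a row. Ptprc (CD45), a marker of blood cells in general, was at 60.1 FPKM in hCALR-del52 cells and 83.1 FPKM in hCALR cells, and Cd79b, a chain of the B cell receptor, at 5.09 FPKM in hCALR-del52 cells and 8.64 FPKM in hCALR cells. Neither was called, although Cd79b had an unadjusted p of 0.0170. Other defining markers such as Pax5 and Ebf1 have no row. Of 15 fibroblast, endothelial and stromal markers 3 had a row and 0 were called. The most abundant was Pecam1, at 44.98 FPKM in hCALR-del52 cells and 53.84 FPKM in hCALR cells, with a log2 ratio of -0.25. Vwf had a log2 ratio of -0.11. The smooth muscle gene Tagln stood at 1.40 FPKM in hCALR-del52 cells and 1.34 FPKM in hCALR cells. A part of other cells in the levels of the troponin genes was not tested.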

How the data were processed

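RNA of 6 samples was sequenced after a TruSeq RNA v2 preparation, per the labels' protocols. Groups were taken from the sample titles. Reads were aligned with TopHat2 2.0.9 and Bowtie2 2.1.0 to mm10 and compared with Cuffdiff 2.1.1 on Ensembl genes by the authors, per the file headers. Low expressed genes and strongly variable ones were taken out before deposit, also per the file headers. The deposited FPKM is 1 value per group, and depth per sample is unknown. The log2 fold change, p-value and q-value are those of the authors, as are the test statistic, a score, and the rank, also a score, both deposited and not interpreted here. The set of tests behind the deposited q is not stated in the file headers.

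From these values, log2((FPKM hCALR-del52 + 1)/(FPKM hCALR + 1)) and plain ratios were computed in Python 3.11.15, and no test over samples was made, since no value per sample was used. Starts are printed after adding 1, which matched the GENCODE M21 gene start in 40.9% of 10962 rows with 1 identifier, against 1.07% without. Symbols on several rows were represented by the row with the highest mean FPKM. Sequences are those of RefSeq (GRCm38.p6), with all 3 genes matched by symbol. The Benjamini-Hochberg step was tested on simulated data.

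The genes and lists were chosen with earlier results of these data known. Named were the 3 genes, measured members of the troponin family, called and most abundant list members (at most 4 a list), and rows within 250 kb. Also named were the 3 rows nearest in level and the rows just above and below each gene by log2 ratio. Genes that share a row or locus with a named gene are named with it. Genes added after their values were seen were Myh10, Hbb-y, Casp1, Casp4 and those named as having no row. An item that this rule names is not reported here.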

Additional observations from a re-analysis of the deposited data

How the results depend on the processing

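The added FPKM is the same in both groups and the scaling was by 1.024, so that neither could turn the direction of the 3 log2 ratios, and only their size is given. For Tnni1 the log2 ratio was 6.54 with 0.1 FPKM added in place of 1, 6.69 with nothing added, and 5.64 with both groups scaled to the same median FPKM. Across these settings Tnnt1 stayed between 1.15 and 1.41 and the Tnni3 row between -1.38 and -1.22. Of the 3 genes, with the shared row counted for Tnni3, 1 was called at the authors' q under 0.01 (Tnni1). The count was 2 when adjustment covered all rows or when rows with several identifiers were left out (both without the Tnni3 row). The count was also 2 when at least 1 FPKM was asked in both groups (without Tnni1). Under Bonferroni adjustment over all rows 0 of the 3 genes and 0 of all rows were called, which the smallest deposited p makes unavoidable with 12615 rows. Asking for at least 1 FPKM in both groups left 146 of 232 calls. Tnni1, at 0.876 FPKM in hCALR cells, was among the called rows that this took out. In hCALR cells 1.22% of all rows lay below the level of Tnni1. How many rows of any kind remained is not given here, so no share called is set beside the 146 calls. The count of called genes in the 9 contractile lists was 0 under every alternative. No paired analysis was possible because each group has a single deposited value. For that reason no replicate was left out, and limits set by depth were not assessed.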

Other observations

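Pairs of called rows on the same chromosome at most 10 kb apart were counted after the values of Tnnt1 and Tnni3 had been seen. There were 20 such pairs, 19 with both rows in the same direction and 1 with opposite directions, which was Tnnt1 with the Tnni3 row. Other pairs included Hbb-bh1 with Hbb-y, both higher in hCALR-del52 cells, and Casp1 with Casp4, both lower. Several pairs involve rows without a gene or share a row, so that pairs are not independent, and no test was made. Of 232 called rows, 8 (3.45%) carry several identifiers, as the Tnni3 row does, near the share in all rows (480 of 12615, 3.805%).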
